A study of Homo sapiens with 3 samples.

Results

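The 9 genes described here encode the lactate dehydrogenases LDHA, LDHB, LDHC and LDHD, the monocarboxylate transporters SLC16A1, SLC16A3 and SLC16A7, and BSG and EMB, the chaperones that carry those transporters to the plasma membrane. They were taken by gene name from the 61533 genes of each deposited expression table. The study sequenced polyadenylated RNA of Hep3B, an established human hepatoma cell line of wild-type genotype in the labels, with 1 library per condition. The first condition was hypoxia with sodium oxamate, in a chamber gassed with 1% oxygen, 5% CO2 and 94% N2. The second was hypoxia in the same gas without oxamate. The third was normoxia at 20% oxygen and 5% CO2. The design text gives 48 hours without saying whether this covers the oxygen exposure, the oxamate or both, and the oxamate dose is not given in the sources used here. All cells carried the same genotype and were cultured in the same medium with fetal bovine serum, and the results describe this line alone in culture.

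Lactate dehydrogenase interconverts pyruvate and lactate while recycling NADH and NAD. LDHA and LDHB subunits assemble into mixed enzymes, with the A subunit prominent in glycolytic tissue and tumours and the B subunit prominent in heart and other oxidative tissue, and oxamate is a pyruvate analogue that competes at the active site. Lactate leaves or enters cells with a proton through the monocarboxylate transporters, and LDHA and SLC16A3 are textbook targets of the hypoxia-inducible factors. The RNA levels below do not measure enzyme activity, lactate or transport.

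Every deposited value above 0 was a whole multiple of the value of 1 fragment in its library, so the number of sequenced fragments behind each gene was recovered. The libraries held 24826365 fragments in hypoxia with oxamate, 26309340 in hypoxia and 27412147 in normoxia. Genes with at least 1 fragment numbered 27505 in hypoxia with oxamate, 27462 in hypoxia and 24566 in normoxia. Each ratio below compares fragments after normalisation by trimmed mean of M values (TMM) and has a 95% exact binomial interval. Intervals, and the upper limits of 3 fragments used for genes with none, cover counting error only. With 1 library per condition there was no replicate check and no test, and "higher" or "lower" means a difference of 2-fold or more in which the larger count was 50 fragments or more. Of the 9 genes, 5 reached 50 fragments in a library (LDHA, SLC16A1, SLC16A3, SLC16A7 and BSG) and 4 did not (LDHB, LDHC, LDHD and EMB). All 8 hepatocyte and hepatoma markers examined were measured, with ALB (albumin) at 1963 FPKM (fragments per kilobase of exon, scaled to the size of the library) in hypoxia with oxamate, 2578 FPKM in hypoxia and 5362 FPKM in normoxia. The 8 markers summed to 2660 FPKM in hypoxia with oxamate, 3938 FPKM in hypoxia and 7370 FPKM in normoxia, a sum that ALB dominates. Shares over all genes tested, below, are of genes with at least 50 fragments in either library. By count, 1 of the 8 markers was higher and 4 were lower in hypoxia than in normoxia, where 10.8% and 8.07% of all genes tested were. None was higher and 4 were lower in hypoxia with oxamate than in hypoxia, where 5.92% and 5.07% of all genes tested were. The higher one, TF (transferrin), had 64.8 FPKM in hypoxia with oxamate, 193 FPKM in hypoxia and 57.7 FPKM in normoxia. The part of these marker differences in the ratios below was not tested. In bulk RNA, fewer cells of a kind and less RNA per cell cannot be told apart.

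Promoter sequences are printed first for LDHA, SLC16A3 and BSG, the 3 genes with at least 50 fragments in which a motif match was found. For each gene the window with the most matches is printed. A core motif, ACGTG, to which hypoxia-inducible factors are known to bind, was searched on both strands in RefSeq windows of 250 bases before each annotated start (GRCh38.p14). No other sequence was searched, so the places below are not a full count of possible binding sites. Windows were found for 6 of the 9 genes (LDHA, LDHB, LDHC, SLC16A3, SLC16A7 and BSG), 13 windows in all. Each sequence reads 5′ to 3′ on the plus strand, on which all 3 genes lie, and capitals mark ACGTG and its reverse complement CACGT, which overlap in the palindrome CACGTG. The windows are chr11:18394313-18394562 for LDHA, chr17:82228792-82229041 for SLC16A3 and chr19:572346-572595 for BSG.
LDHA: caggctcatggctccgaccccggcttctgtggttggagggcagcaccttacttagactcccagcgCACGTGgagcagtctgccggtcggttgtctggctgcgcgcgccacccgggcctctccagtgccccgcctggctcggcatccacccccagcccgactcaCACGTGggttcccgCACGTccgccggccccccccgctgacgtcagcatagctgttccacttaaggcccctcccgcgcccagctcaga
SLC16A3: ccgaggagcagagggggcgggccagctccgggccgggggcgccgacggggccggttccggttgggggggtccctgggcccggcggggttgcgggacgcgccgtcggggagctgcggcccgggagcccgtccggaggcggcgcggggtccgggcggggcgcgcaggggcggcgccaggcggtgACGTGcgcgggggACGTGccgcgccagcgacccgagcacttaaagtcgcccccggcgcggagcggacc
BSG: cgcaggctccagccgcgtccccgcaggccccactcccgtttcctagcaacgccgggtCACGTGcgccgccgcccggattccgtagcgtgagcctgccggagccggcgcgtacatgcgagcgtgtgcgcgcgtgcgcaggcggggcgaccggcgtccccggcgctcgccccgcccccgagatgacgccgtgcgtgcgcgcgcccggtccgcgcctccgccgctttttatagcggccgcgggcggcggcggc

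The LDHA window held the core at 3 separate places, 2 of them palindromes read on both strands, and its last place began 73 bases before the start, while the other LDHA window held none. The SLC16A3 window held it at 2 places, beginning 68 and 55 bases before the start, and the other 4 SLC16A3 windows held none. The BSG window held 1 palindrome, beginning 193 bases before the start, and its other window held none. LDHC had 1 window with 1 match. The LDHB window and both SLC16A7 windows had no match, which says only that these letters are absent from those bases. Among all 35116 RefSeq windows of this length, 18.5% held at least 1 place, 2.61% at least 2 and 0.350% at least 3. The 3 printed windows are rich in G and C (69.6% in LDHA, 83.2% in SLC16A3 and 78.4% in BSG), and among the 16148 windows with at least 60% G and C the shares were 22.1%, 3.55% and 0.545%. These shares are per window. Each printed window was picked as the one with the most matches of its gene, so the shares are not a like background for it. A match is a description of the sequence and was not tied to binding here.

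**Figure D1:**
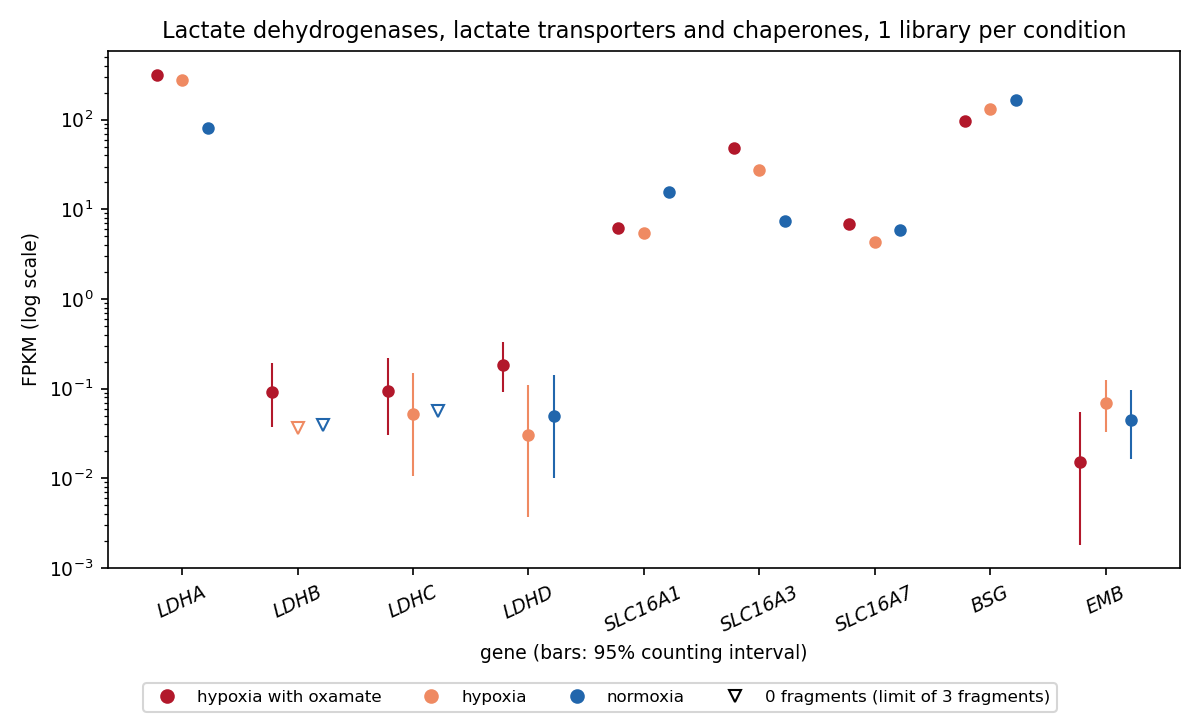
Level of each of the 9 genes in FPKM on a log axis, 1 point per library, with hypoxia with oxamate to the left of hypoxia and normoxia at the right of each triplet. Bars are 95% exact Poisson intervals, hidden by the points where counts are high, and open triangles are the limit of 3 fragments where none was counted. LDHA, BSG and the 3 transporters lie above 4 FPKM in all 3 libraries, and LDHB, LDHC, LDHD and EMB lie below 0.2 FPKM.

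LDHA, the dehydrogenase subunit of glycolytic tissue (chr11:18394560-18408425, plus strand, hg38), had the highest listed FPKM of the lactate dehydrogenase genes in all 3 libraries. The listed LDHB values have a limit, given below, so the true order of LDHA and LDHB was not tested. It had 48618 fragments (318 FPKM) in hypoxia with oxamate, 46682 (278 FPKM) in hypoxia and 12544 (80.8 FPKM) in normoxia. Both libraries grown at low oxygen stood far above the normoxic one, and their own gap was small. Among all genes with a fragment, ordered by FPKM, LDHA ranked 55 in hypoxia with oxamate, 60 in hypoxia and 414 in normoxia. LDHA was 3.48-fold higher in hypoxia than in normoxia (interval 3.41 to 3.55) and 4.01-fold higher in hypoxia with oxamate than in normoxia (3.93 to 4.09). The ratio of hypoxia with oxamate to hypoxia was 1.15 (1.14 to 1.17), which is outside counting error but under the 2-fold rule. No library in the series combines oxamate with normoxia, so the oxamate comparison exists only at low oxygen.

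The genes beside LDHA with enough fragments had ratios nearer to 1 than LDHA in both comparisons with normoxia. The LDHA ratio of 1.15 in hypoxia with oxamate against hypoxia lay within the range of these genes. TSG101, HPS5 and GTF2H1, the 3 other genes within 100 kb that reached 50 fragments, had ratios of 0.804 to 1.05 in hypoxia against normoxia, 0.930 to 1.27 in hypoxia with oxamate against hypoxia and 0.981 to 1.02 in hypoxia with oxamate against normoxia. None of the 3 passed the 2-fold rule in any comparison. LDHC and LDHAL6A also lie within 100 kb but did not reach 50 fragments. LDHAL6A had 37 fragments in hypoxia and 2 in normoxia, a ratio of 17.3 (4.46 to 148). No exon base of LDHA is shared with another gene in GENCODE 29, and a sense intronic transcript inside LDHA, ENSG00000256006, had 24 fragments in hypoxia with oxamate, 30 in hypoxia and 5 in normoxia.

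LDHB, the subunit of oxidative tissue (chr12:21635342-21757857, minus strand), was listed at 7 fragments (0.0928 FPKM) in hypoxia with oxamate, 0 in hypoxia and 0 in normoxia. A count of 0 allows up to 0.0362 FPKM in hypoxia and 0.0391 FPKM in normoxia by the limit of 3 fragments. The exact Poisson intervals of LDHB overlapped, at 0.0373 to 0.191 FPKM in hypoxia with oxamate and up to 0.0445 FPKM in hypoxia. Against the limit of 3 fragments in hypoxia, the 7 fragments with oxamate were 2.58-fold higher after normalisation. This fold is not a lower bound, because the 7 fragments carry counting error of their own, and the count is too low for the size rule. By the listed counts, LDHA was 7688-fold above the LDHB limit of 3 fragments in FPKM in hypoxia and 2066-fold in normoxia. These folds are not lower bounds: the Poisson interval of LDHB reaches 0.0445 FPKM in hypoxia, and the annotation sets a further limit, given below. In hypoxia with oxamate LDHA was 3431-fold above the 7 fragments of LDHB (interval 1665 to 8535). None of 13 widely used genes, ACTB and GAPDH among them, was listed at 0 in any library, which leaves the LDHB zeros themselves unchecked.

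The LDHB value has a limit in the annotation. A gene on the same strand, ENSG00000285854, overlaps LDHB and takes up 33.4% of its exon bases and 997 of the 1303 bases (76.5%) of the transcript LDHB-201. ENSG00000285854 was itself listed at 0 in all 3 libraries, as was the antisense gene ENSG00000256615. Fragments that fall in bases shared by 2 genes can be left uncounted for both, and the part of this in the LDHB value was not tested. Counted over only the 306 unshared bases of LDHB-201, the limits become 0.353 FPKM in hypoxia and 0.381 FPKM in normoxia. LDHA, still over its full exon length, is then 789-fold above that limit in hypoxia and 212-fold in normoxia. If all 7 fragments of the oxamate library lay in those bases, LDHB would be at 0.905 FPKM there and LDHA 352-fold above it (171 to 876). Fragments that run from unshared into shared bases can also be left uncounted, so none of these folds is a lower bound. Among 9 pseudogenes named for LDHA or LDHB, all under 50 fragments, LDHBP1 had 3 fragments in hypoxia with oxamate, 16 in hypoxia and 0 in normoxia. How reads that match both a gene and such a copy were counted is not given in the sources used here.

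LDHC, the isoform known from testis (chr11:18412318-18452063, plus strand), had 5 fragments in hypoxia with oxamate, 3 in hypoxia and 0 in normoxia. These counts are too low for a direction: the ratio of hypoxia with oxamate to hypoxia was 1.84 with an interval of 0.359 to 11.9. None of 5 germ cell markers reached 50 fragments, and DAZL, PRM1 and TNP1 were at 0 in all 3 libraries. LDHC lies beside LDHA and did not share its level.

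LDHD, the mitochondrial enzyme that oxidises D-lactate (chr16:75111860-75116780, minus strand), had 11 fragments (0.184 FPKM) in hypoxia with oxamate, 2 (0.0304 FPKM) in hypoxia and 3 (0.0493 FPKM) in normoxia. The oxamate library held the most, with a ratio to hypoxia of 6.08 and an interval of 1.33 to 56.5, on counts below the minimum of 50. Of the genes that make D-lactate from methylglyoxal, GLO1 (glyoxalase I) had 28.7 FPKM in hypoxia with oxamate, 46.3 in hypoxia and 65.5 in normoxia, and HAGH (glyoxalase II) had 2.93 FPKM in hypoxia with oxamate, 1.97 in hypoxia and 2.71 in normoxia. GLO1 was lower in hypoxia with oxamate than in normoxia, by 2.24-fold (2.12 to 2.38), and neither gene passed the 2-fold rule in the other comparisons.

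Of the LDH-like genes UEVLD, LDHAL6A and LDHAL6B, UEVLD alone reached 50 fragments. UEVLD had 762 fragments in hypoxia with oxamate, 655 in hypoxia and 350 in normoxia, and was 2.25-fold higher in hypoxia with oxamate than in normoxia (1.98 to 2.56). LDHAL6A, a relative of LDHA, had 20 fragments in hypoxia with oxamate, 37 in hypoxia and 2 in normoxia, a ratio of 17.3 in hypoxia against normoxia with an interval of 4.46 to 148. LDHAL6B had 4 fragments in hypoxia with oxamate, 1 in hypoxia and 4 in normoxia.

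SLC16A3 encodes MCT4, known as a low-affinity transporter of glycolytic cells that exports lactate (chr17:82217934-82261129, plus strand). It had 11353 fragments (48.6 FPKM) in hypoxia with oxamate, 6980 (27.2 FPKM) in hypoxia and 1745 (7.34 FPKM) in normoxia. The 3 libraries were well separated, with the oxamate library the highest. SLC16A3 was 3.74-fold higher in hypoxia than in normoxia (3.55 to 3.94), close to the LDHA ratio. It was 6.73-fold higher in hypoxia with oxamate than in normoxia (6.40 to 7.08). The ratio of hypoxia with oxamate to hypoxia was 1.80 (1.75 to 1.85), short of 2-fold, and within the same libraries LDHA fragments per SLC16A3 fragment were 4.28 in hypoxia with oxamate and 6.69 in hypoxia. By FPKM SLC16A3 ranked 651 in hypoxia with oxamate, 1363 in hypoxia and 5699 in normoxia.

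Around SLC16A3, 6 genes within 100 kb reached 50 fragments. Those higher in hypoxia than in normoxia were ENSG00000280407 (128 fragments in hypoxia and 13 in normoxia, ratio 9.20) and ENSG00000275888 (57 fragments in hypoxia and 16 in normoxia, ratio 3.33), which both lie inside SLC16A3 on its strand. The oxamate library had 63 fragments of ENSG00000280407 and 39 of ENSG00000275888, so neither followed SLC16A3 in being highest there. CSNK1D, on the opposite strand, shares part of the 6.04% of SLC16A3 exon bases that overlap another gene, and had ratios of 1.17 in hypoxia against normoxia and 1.21 in hypoxia with oxamate against hypoxia.

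SLC16A1 encodes MCT1, the widely expressed transporter that moves lactate in either direction (chr1:112911847-112957593, minus strand). It had 1007 fragments (6.27 FPKM) in hypoxia with oxamate, 967 (5.48 FPKM) in hypoxia and 2539 (15.6 FPKM) in normoxia. Both libraries at low oxygen lay well under normoxia and near each other. SLC16A1 was 2.81-fold lower in hypoxia than in normoxia (2.61 to 3.03) and 2.44-fold lower in hypoxia with oxamate than in normoxia (2.27 to 2.63). The ratio of hypoxia with oxamate to hypoxia was 1.15 (1.05 to 1.26). Its antisense gene SLC16A1-AS1, which overlaps 3.29% of the SLC16A1 exon bases, had 95 fragments in hypoxia with oxamate, 75 in hypoxia and 85 in normoxia, a ratio of 0.825 in hypoxia against normoxia (0.596 to 1.14).

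SLC16A7 encodes MCT2, a high-affinity transporter of lactate and pyruvate (chr12:59596029-59789855, plus strand). It had 2381 fragments (6.87 FPKM) in hypoxia with oxamate, 1634 (4.29 FPKM) in hypoxia and 2097 (5.95 FPKM) in normoxia. Hypoxia alone was the lowest library, and hypoxia with oxamate the highest. The ratio was 1.61 in hypoxia with oxamate against hypoxia (1.51 to 1.72) and 1.17 in hypoxia with oxamate against normoxia (1.11 to 1.25), and SLC16A7 was 1.37-fold below normoxia in hypoxia (1.29 to 1.47), all short of 2-fold.

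**Figure D2:**
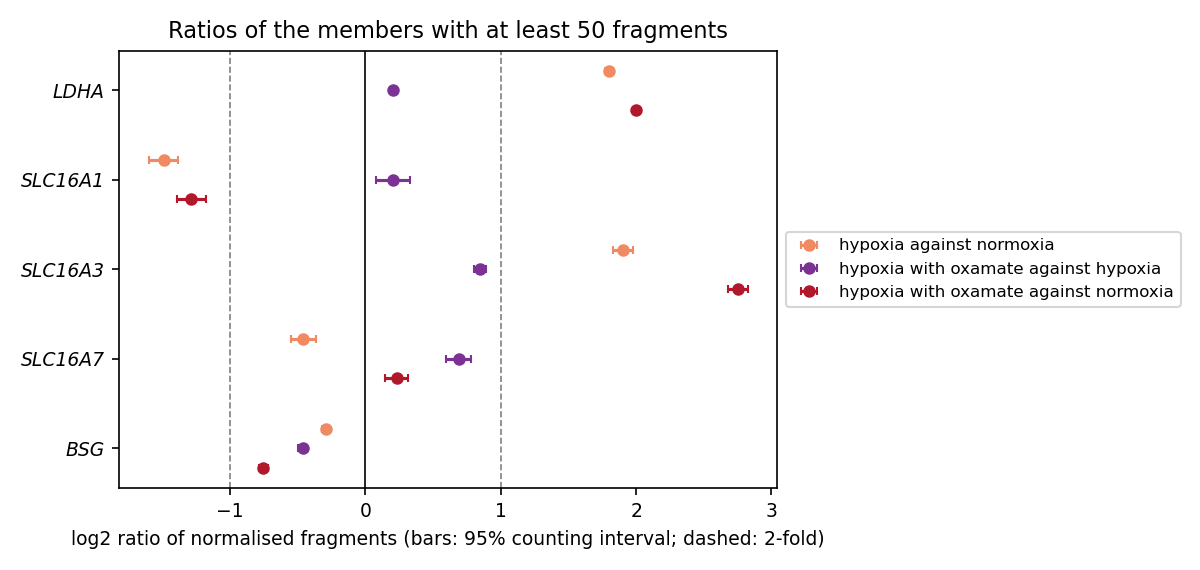
Log2 ratio of normalised fragments for the 5 genes with at least 50 fragments, by comparison, with 95% exact binomial intervals for counting error and dashed lines at 2-fold. LDHA and SLC16A3 lie right of the upper dashed line and SLC16A1 left of the lower one in both comparisons with normoxia, and no gene lies outside the dashed lines for hypoxia with oxamate against hypoxia.

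The transporter transcripts had a different leader at low oxygen than in normoxia. SLC16A3 made up 78.7% of the summed FPKM of SLC16A1, SLC16A3 and SLC16A7 in hypoxia with oxamate, 73.6% in hypoxia and 25.5% in normoxia. SLC16A1 made up 10.2% in hypoxia with oxamate, 14.8% in hypoxia and 53.9% in normoxia, and SLC16A7 made up 11.1% in hypoxia with oxamate, 11.6% in hypoxia and 20.6% in normoxia. SLC16A3 was thus the leading transporter transcript in both libraries at low oxygen and SLC16A1 in normoxia. The ratio of SLC16A3 to SLC16A1 fragments, which does not depend on library scaling, was 11.3 in hypoxia with oxamate, 7.22 in hypoxia and 0.687 in normoxia. Between hypoxia and normoxia this ratio differed 10.5-fold (9.59 to 11.5), and between hypoxia with oxamate and hypoxia 1.56-fold (1.42 to 1.71). The deposited FPKM divides by the summed exon length of all transcripts. Per kilobase of the principal coding transcript, an alternative chosen after seeing the data, SLC16A3 made up 84.5% in hypoxia with oxamate, 80.1% in hypoxia and 32.3% in normoxia, and the leading transporter of each library was the same.

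**Figure D3:**
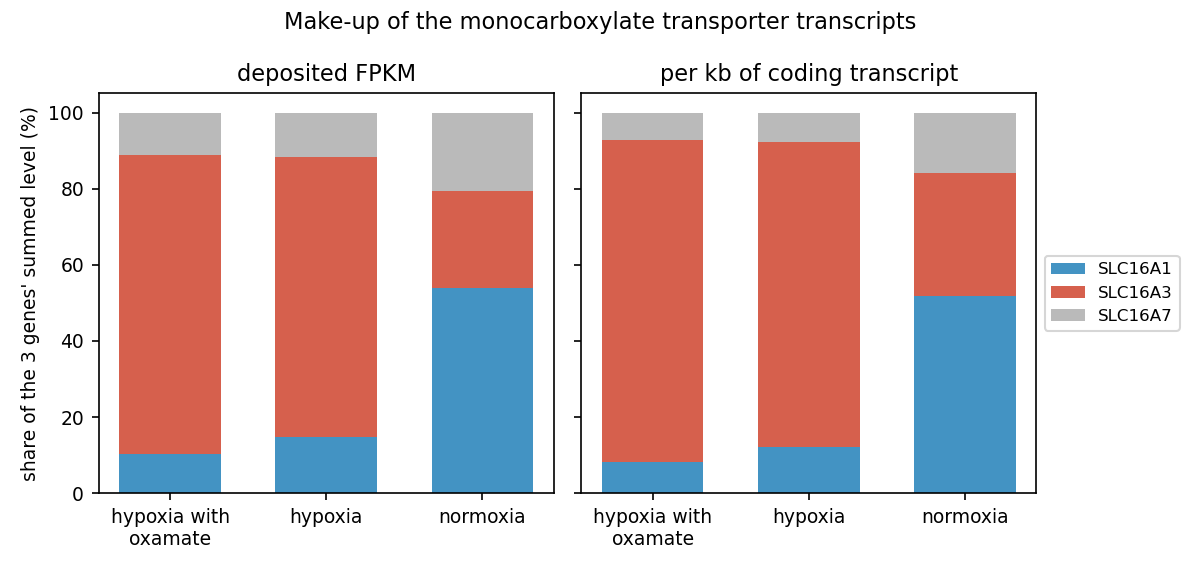
Share of SLC16A1, SLC16A3 and SLC16A7 in their summed level in each library, in percent, from the deposited FPKM (left) and per kilobase of the principal coding transcript (right). SLC16A3 fills 78.7% and 73.6% of the FPKM bars of hypoxia with oxamate and hypoxia, and SLC16A1 fills 53.9% of the normoxia bar.

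BSG encodes basigin (CD147), the chaperone of MCT1 and MCT4 (chr19:571277-583494, plus strand). It had 10711 fragments (95.9 FPKM) in hypoxia with oxamate, 16330 (133 FPKM) in hypoxia and 18682 (164 FPKM) in normoxia. The order of the libraries was the reverse of that of SLC16A3, with the oxamate library the lowest. BSG was 1.22-fold below normoxia in hypoxia (1.20 to 1.25), 1.38-fold below hypoxia in hypoxia with oxamate (1.34 to 1.41) and 1.69-fold below normoxia in hypoxia with oxamate (1.65 to 1.73), and none of these passed the 2-fold rule. On the log2 scale the hypoxia against normoxia value was -0.29, beside a median of -0.11 over all 13554 genes tested. The level of BSG over the summed FPKM of the 3 transporters was 1.55 in hypoxia with oxamate, 3.60 in hypoxia and 5.70 in normoxia, so BSG RNA exceeded the summed transporter RNA in every library by this measure. Per kilobase of coding transcript the quotient was 1.95 in hypoxia with oxamate, 4.58 in hypoxia and 8.44 in normoxia.

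BSG-AS1, which overlaps 3.69% of the BSG exon bases on the other strand, had 66 fragments in hypoxia with oxamate, 79 in hypoxia and 121 in normoxia. EMB, which encodes embigin, known from work in rat as the chaperone of MCT2 (chr5:50396192-50443248, minus strand), had 2 fragments in hypoxia with oxamate, 10 in hypoxia and 6 in normoxia. On these counts EMB was 4.52-fold below hypoxia in hypoxia with oxamate with an interval of 0.963 to 42.4, which includes no difference. NPTN, which encodes neuroplastin, a relative of basigin and embigin, had 26.0 FPKM in hypoxia with oxamate, 24.7 in hypoxia and 25.4 in normoxia. Its ratios of 0.983 in hypoxia against normoxia and 1.06 in hypoxia with oxamate against hypoxia lay nearer to 1 than those of BSG.

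Set against all genes tested, 2 of the 5 genes with enough fragments (LDHA and SLC16A3) were higher in hypoxia than in normoxia, where 10.8% of all genes tested were, and 1 (SLC16A1) was lower, where 8.07% were. In hypoxia with oxamate against normoxia the same genes were higher and lower, against backgrounds of 15.4% and 15.3%. None of the 5 passed in either direction in hypoxia with oxamate against hypoxia, beside backgrounds of 5.92% higher and 5.07% lower. With 1.5-fold in place of 2-fold, 2 genes were higher (background 18.7%) and 1 lower (21.9%) in hypoxia than in normoxia. In hypoxia with oxamate against hypoxia, 2 were then higher (SLC16A3 and SLC16A7; 13.7%) and none lower (13.8%), and in hypoxia with oxamate against normoxia, 2 were higher (24.3%) and 2 lower (SLC16A1 and BSG; 28.7%). With a minimum of 10 fragments in place of 50, LDHD was higher (10.8% of all genes) and EMB lower (9.66%) in hypoxia with oxamate than in hypoxia, and in hypoxia with oxamate against normoxia LDHA, SLC16A3 and LDHD were higher (23.0%) and SLC16A1 lower (15.4%). With no replicates, no tool gave a p-value for these counts. The median log2 ratio of the 5 genes was -0.29 in hypoxia against normoxia, 0.20 in hypoxia with oxamate against hypoxia and 0.23 in hypoxia with oxamate against normoxia, beside -0.11, -0.01 and -0.11 over all genes tested. Comparisons with normoxia share the normoxic library, and the hypoxic library enters both other comparisons, so their values are not independent. In FPKM the order was LDHA, BSG, SLC16A3, SLC16A7, SLC16A1 in hypoxia with oxamate, LDHA, BSG, SLC16A3, SLC16A1, SLC16A7 in hypoxia, and BSG, LDHA, SLC16A1, SLC16A3, SLC16A7 in normoxia. SLC16A7 and SLC16A1 had overlapping counting intervals in hypoxia with oxamate (6.60 to 7.15 and 5.89 to 6.67 FPKM) and changed places there per kilobase of coding transcript.

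The rest of the SLC16 family, which carries substrates such as aromatic amino acids and carnitine besides lactate, included 1 gene at the level of the lactate transporters. SLC16A13 had 5.87 FPKM in hypoxia with oxamate, 6.63 in hypoxia and 12.0 in normoxia, the highest of the 11, and above SLC16A3 and SLC16A7 in normoxia. Of 11 further members, 8 were measured in hypoxia against normoxia, 3 of them higher (10.8% of all genes tested) and 1 lower (8.07%), with a median log2 ratio of 0.76 (-0.11 over all genes tested). SLC16A12, a creatine transporter, had 25 fragments in hypoxia with oxamate, 108 in hypoxia and 36 in normoxia. Another, SLC16A4, had 46 fragments in hypoxia with oxamate, 68 in hypoxia and 26 in normoxia. SLC16A12 was 2.80-fold higher in hypoxia than in normoxia (1.91 to 4.21) and 3.90-fold lower in hypoxia with oxamate than in hypoxia (2.51 to 6.30). For SLC16A3 the oxamate library was the highest of the 3. In hypoxia with oxamate against hypoxia, 7 were measured, none higher (5.92% of all genes tested) and 3 lower (5.07%), SLC16A8 (MCT3) among the lower, with a median of -0.45 (-0.01). SLC16A9, the member lower in hypoxia than in normoxia, had 28 fragments in hypoxia with oxamate, 28 in hypoxia and 167 in normoxia. The sodium-coupled lactate transporters SLC5A8 and SLC5A12 and the lactate receptor HCAR1 did not reach 50 fragments; SLC5A8 was at 0 in all 3 libraries, and HCAR1 had 10 fragments in hypoxia with oxamate, 35 in hypoxia and 1 in normoxia.

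Pyruvate, the substrate of lactate dehydrogenase, is made by pyruvate kinase and enters mitochondria through the carrier MPC1 and MPC2. Of 13 genes of pyruvate supply and its other fates, 4 were higher and 5 lower in hypoxia than in normoxia, where 10.8% and 8.07% of all genes tested were, with a median log2 ratio of -0.64 beside -0.11 over all. PKM, the pyruvate kinase gene of most growing cells, had 277 FPKM in hypoxia with oxamate, 255 in hypoxia and 103 in normoxia, and PKLR, that of liver and red cells, had 0.724 FPKM in hypoxia with oxamate, 1.44 in hypoxia and 6.95 in normoxia. PKM was 2.50-fold higher in hypoxia than in normoxia (2.46 to 2.54) and PKLR 4.77-fold lower (3.93 to 5.83). HCN3 overlaps 17.6% of the PKLR exon bases. Of the 4 kinases that switch off pyruvate dehydrogenase, PDK1, PDK3 and PDK4 were the other genes higher in hypoxia than in normoxia, and PDK2 was 1.55-fold below normoxia (1.34 to 1.80), short of 2-fold. PDK1 had 4166 fragments in hypoxia with oxamate, 2785 in hypoxia and 261 in normoxia, 9.97-fold higher in hypoxia than in normoxia (8.78 to 11.4).

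The carrier subunits and the malic enzymes made up the rest of the genes lower in hypoxia. MPC1 had 647 fragments in hypoxia with oxamate, 533 in hypoxia and 1846 in normoxia, and was 3.71-fold lower in hypoxia than in normoxia (3.36 to 4.09). MPC2 was 2.30-fold lower in hypoxia (2.18 to 2.43), and DCAF6 overlaps 22.5% of the MPC2 exon bases. The number of LDHA fragments per MPC1 fragment was 75.1 in hypoxia with oxamate, 87.6 in hypoxia and 6.80 in normoxia, a 12.9-fold difference between hypoxia and normoxia (11.7 to 14.2), whereas the LDHA to PKM ratio differed 1.39-fold (1.36 to 1.43). The LDHA to PKM quotient was thus nearer to constant across these libraries than the LDHA to MPC1 quotient.

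With oxamate, the malic enzyme ME1, which makes pyruvate and NADPH from malate, and GPT2, the mitochondrial alanine aminotransferase, were the 2 genes of this list higher than in hypoxia (5.92% of all genes tested). ME1 had 1987 fragments in hypoxia with oxamate, 565 in hypoxia and 1355 in normoxia, 3.89-fold higher with oxamate than in hypoxia (3.54 to 4.28). GPT2 had 3814 fragments in hypoxia with oxamate, 1802 in hypoxia and 2194 in normoxia, 2.34-fold higher with oxamate than in hypoxia (2.21 to 2.48). PDK2 and PDK4 were the genes lower with oxamate than in hypoxia (5.07% of all genes tested), by 3.46-fold (2.71 to 4.47) and 2.48-fold (1.88 to 3.31), and 38.6% of the PDK2 exon bases are shared with SAMD14. The median log2 ratio of the 13 genes was 0.13, beside -0.01 over all genes tested.

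**Figure D4:**
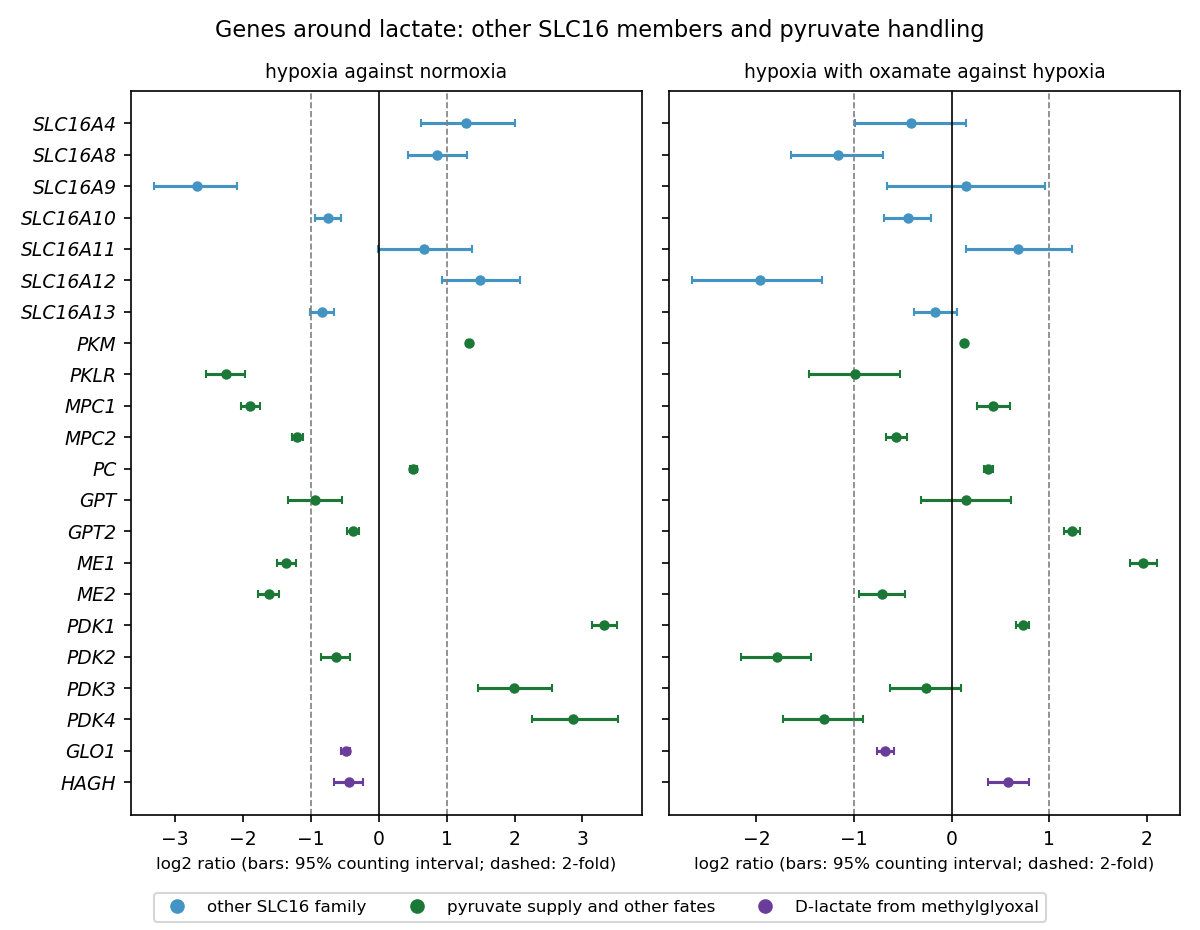
Log2 ratios of other SLC16 genes (blue), genes of pyruvate supply and its other fates (green) and glyoxalase genes (purple), for hypoxia against normoxia and for hypoxia with oxamate against hypoxia. Bars are 95% counting intervals, dashed lines mark 2-fold, and the genes drawn have at least 50 fragments in a library. PDK1 lies furthest right at 9.97-fold in the first panel, and ME1 at 3.89-fold in the second.

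Lactate is carried together with a proton, so genes of proton handling at the membrane were also described. Of 7 genes, 2 were higher (CA9 and CA14) and 1 lower (CA2) in hypoxia than in normoxia, where 10.8% and 8.07% of all genes tested were. The CA14 ratio was 2.003 (1.52 to 2.66) and fell short of the rule at 1.98 under the deposited FPKM scaling. CA2 alone of the 7 was higher in hypoxia with oxamate than in hypoxia (5.92% of all genes tested). CA9, the hypoxia-induced membrane carbonic anhydrase, had 5823 fragments in hypoxia with oxamate, 5112 in hypoxia and 173 in normoxia, 27.6-fold higher in hypoxia than in normoxia (23.7 to 32.3). ARHGEF39 overlaps 38.5% of the CA9 exon bases. CA2, the cytosolic carbonic anhydrase known to bind monocarboxylate transporters, had 305 fragments in hypoxia with oxamate, 65 in hypoxia and 328 in normoxia. CA2 was 5.19-fold higher in hypoxia with oxamate than in hypoxia (3.96 to 6.89) and 5.40-fold lower in hypoxia than in normoxia (4.13 to 7.16).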

How the data were processed

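The data are 3 RNA sequencing libraries of Hep3B cells, 1 per condition, made with poly-T selection from 3 µg of RNA each per the labels' protocols. The authors deposited FPKM per gene; the submitters' processing notes name the build hg38 and the tools HISAT2 2.0.5, StringTie 1.3.3b, featureCounts 1.5.0-p3 and edgeR 3.22.5, with no role or order. Whether counting used strand is not given in the sources used here.

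FPKM times exon length gave whole fragments for 100% of values above 0 (tolerance 0.01). The library sizes implied by the deposited FPKM equal those of median-of-ratios scaling. TMM factors (trims of 30% and 5%) came from genes with at least 10 fragments and were 1.01 in hypoxia with oxamate, 1.05 in hypoxia and 0.943 in normoxia. Ratios have exact conditional binomial intervals, levels exact Poisson intervals, and ratios of 2 genes within a library normal intervals on the log scale. One library per condition allows no test. The calculation was tested on simulated Poisson counts drawn from the hypoxia profile, with a small set of genes changed equally in both directions. That setting has no variation between cultures and no wide or unbalanced change, so it does not check the scaling for these data. Exon overlaps, gene types and coding transcripts are from GENCODE 29, whose exon lengths differ from the deposited ones for some genes. Python 3.11.15, numpy 2.4.6, scipy 1.17.1, pandas 2.3.3 and matplotlib 3.10.9 were used.

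Named genes are the 9 members, all genes of lists of related genes, neighbours within 100 kb with at least 50 fragments, and the 3 genes nearest in pattern to each member; a few of these genes are not reported here. Members and lists were chosen with earlier results of these data known. Other scalings, fold and fragment minimums and a requirement that the whole interval pass 2 were the alternatives.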

Additional observations from a re-analysis of the deposited data

How the results depend on the processing

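No paired analysis was possible because each condition has 1 library, and for the same reason no library could be left out. The counts of genes higher or lower (6 counts, 7 distinct alternatives each) stayed within 1.5 times in 38 of 42 cases. The deposited FPKM scaling equals median-of-ratios scaling and is counted once. At a ratio of at least 1.5, 2 genes (SLC16A3 and SLC16A7) were higher in hypoxia with oxamate than in hypoxia, beside 13.7% of all genes, and 2 (SLC16A1 and BSG) were lower in hypoxia with oxamate than in normoxia, beside 28.7%. With a minimum of 10 fragments, 1 gene (LDHD) was higher (10.8% of all genes) and 1 (EMB) lower (9.66%) in hypoxia with oxamate than in hypoxia, on the 11 against 2 and 2 against 10 fragments given above, and 3 genes (LDHA, SLC16A3 and LDHD) were higher in hypoxia with oxamate than in normoxia. All 15 log2 ratios of the 5 genes kept their direction under all 4 distinct other scalings. They moved beyond their counting interval in 13 of 60 cases, 12 of them under scaling by total fragments. That scaling put the median log2 ratio of all genes in hypoxia against normoxia at 0.04, against -0.11 after TMM. It called 1775 genes higher and 751 lower (70.3% of calls higher), against 1468 and 1094 (57.3%) after TMM. BSG then stood at -0.13 and SLC16A3 at 2.06. LDHB, LDHC, LDHD and EMB had too few fragments for the size rule. Of the related genes named above, CA14 lost its call under median-of-ratios scaling. Under total fragments, SLC16A8 (2.02 in hypoxia against normoxia) and PKLR (0.484 in hypoxia with oxamate against hypoxia) passed. PKLR also passed, at 0.497, with TMM factors from all genes with a fragment. Scaling by total fragments put ALB at 0.541 in hypoxia against normoxia, short of 2-fold.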

Other observations

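For each of the 5 genes with at least 50 fragments in every library, the protein-coding genes with the most similar pair of log2 ratios (hypoxia against normoxia, and hypoxia with oxamate against hypoxia) were listed among 8789 candidates with at least 1000 fragments in sum. The pattern spans 3 libraries and is a description only. PRAG1, DSP (desmoplakin) and PKHD1 lay nearest to LDHA, at distances of 0.06 to 0.08 on the log2 scale, and only these 3 lay within 0.1. KLF7, a transcription factor, SMIM31 and HAS3, a hyaluronan synthase, lay nearest to SLC16A3, at 0.06 to 0.11. FKBP4, TKT (transketolase) and DUS3L lay nearest to SLC16A1, with 10 genes within 0.1. RAB11FIP3, TPRG1L and ITGB1BP1 lay nearest to SLC16A7, with 19 within 0.1. TAF15 and MSH6, a mismatch repair gene, were among the nearest to BSG, with 92 within 0.1.

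Within 100 kb of BSG, 9 genes reached 50 fragments. FGF22, a growth factor gene, had 22 fragments in hypoxia with oxamate, 85 in hypoxia and 13 in normoxia, 6.11-fold higher in hypoxia than in normoxia (3.39 to 11.9). MADCAM1 had 70 fragments in hypoxia with oxamate, 40 in hypoxia and 29 in normoxia, 2.50-fold higher in hypoxia with oxamate than in normoxia (1.60 to 3.99). Near LDHB, KCNJ8 had 57 fragments in hypoxia with oxamate, 46 in hypoxia and 101 in normoxia.

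Of the endothelial markers PECAM1 alone reached 50 fragments, with 499 in hypoxia with oxamate, 230 in hypoxia and 33 in normoxia, while KDR was at 0 in all 3 libraries and VWF and CDH5 had at most 3 fragments. Of the blood markers LYZ alone did, with 1499 fragments (34.4 FPKM) in hypoxia with oxamate, 880 (18.4 FPKM) in hypoxia and 965 (21.8 FPKM) in normoxia. Another gene overlaps 34.0% of the LYZ exon bases, and CD3E was at 0 throughout. The 4 fibroblast and stellate markers summed to 0.910 FPKM in hypoxia with oxamate, 2.73 in hypoxia and 2.04 in normoxia. COL1A1 and PDGFRB reached 50 fragments and were lower in hypoxia with oxamate than in hypoxia, by 2.30-fold (1.65 to 3.25) and 3.60-fold (2.91 to 4.48), and DCN was at 0 in all 3 libraries. The part of these markers in the results was not tested.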
